A study of Mus musculus with 8 samples.

Results

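A set of 10 genes of poly(A) binding and pre-mRNA 3′ processing were followed through 4 lists of N6-methyladenosine (m6A) peaks from RAW264.7 cells, a mouse macrophage line. They are Cpsf1, Cpsf2 and Cpsf3 of the cleavage and polyadenylation specificity factor (CPSF), Cstf2 of the cleavage stimulation factor (CstF), Nudt21, Cpsf6 and Cpsf7 of cleavage factor I, Pcf11 of cleavage factor II, the nuclear poly(A)-binding protein Pabpn1 and the cytoplasmic poly(A)-binding protein Pabpc1. In all, 4320 genes carried a peak somewhere in the 4 lists, and 8 of the 10 were among them. A peak was assigned to the gene that holds it on the same strand. The genes were chosen by name with the peak lists already known, so which of them had peaks in which list is a description and supports nothing further.

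The untreated cells (control) and the cells given TBP, TCP or TIP, the labels' own names, at 100 µM for 24 h each gave 1 library immunoprecipitated with an anti-m6A antibody and 1 RNA input library, 8 in all. What was analysed is the peak list that the authors deposited for each of the 4 immunoprecipitated libraries; the inputs were not analysed here. Without replicates, no test was possible, and a difference between lists cannot be told apart from a difference between cultures or libraries. Read counts are not part of these lists, and the depth of a peak is therefore unknown. A gene without a peak in a list had none called there, which does not show that its RNA was unmethylated or less abundant. All treated cells and the control are the same cell line, and the labels name no vehicle for the control.

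Most mRNA 3′ ends are made by cutting the nascent transcript and adding a poly(A) tail. CPSF binds the AAUAAA signal and holds the endonuclease Cpsf3, CstF binds U- and GU-rich sequence downstream of the cut, and cleavage factor I binds UGUA upstream of it and influences which of several poly(A) sites is used. Cleavage factor II, with Pcf11, links cleavage to transcription termination. Pabpn1 coats the growing tail in the nucleus, and Pabpc1 binds it in the cytoplasm, where it acts in translation and mRNA turnover. m6A is deposited co-transcriptionally on mRNA, mostly in long exons and around stop codons and 3′ UTRs, and is read by proteins that alter splicing, export, translation and decay.

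In control 4432 peaks fell in 2482 genes, and the numbers were 6285 in 3135 for TBP, 6981 in 3403 for TCP and 3034 in 1794 for TIP. The authors' score has no stated scale and its lowest value differed between lists (8.59, 8.56, 8.73 and 10.7 in the order above), so it was used here to rank peaks within a list, with rank 1 the highest score. Ranks in lists of different length do not show a change. Of 10 macrophage markers, 6 carried a peak somewhere. Csf1r, Mpeg1, Fcgr1 and Tlr4 did so in every list, Cd68 and Lyz2 in control and TBP but not in TCP or TIP, and Adgre1, Itgam, Fcgr3 and Marco in none. Of 12 markers of other cell types, 0 had a peak.

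The 10 genes held 36 peaks. Control had 10 of them, TBP 9, TCP 11 and TIP 6, or 0.226%, 0.143%, 0.158% and 0.198% of each list. By number of genes, 5 were marked in control (Cpsf2, Cpsf6, Cpsf7, Pcf11 and Pabpc1), 3 in TBP (Cpsf2, Cpsf6 and Pcf11), 6 in TCP (Cpsf2, Cpsf3, Cpsf6, Cpsf7, Cstf2 and Pcf11) and 5 in TIP (Cpsf2, Cpsf3, Cstf2, Pcf11 and Pabpn1). Of the 4320 genes, control marked 57.5%, TBP 72.6%, TCP 78.8% and TIP 41.5%. Cpsf2 and Pcf11 were in all 4 lists, 2 of the 8 genes with any peak, where 29.8% of the 4320 were. Cpsf1 and Nudt21 had no peak in any list. Of all protein-coding RefSeq genes, 19.3% carried a peak somewhere.

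**Figure D1:**
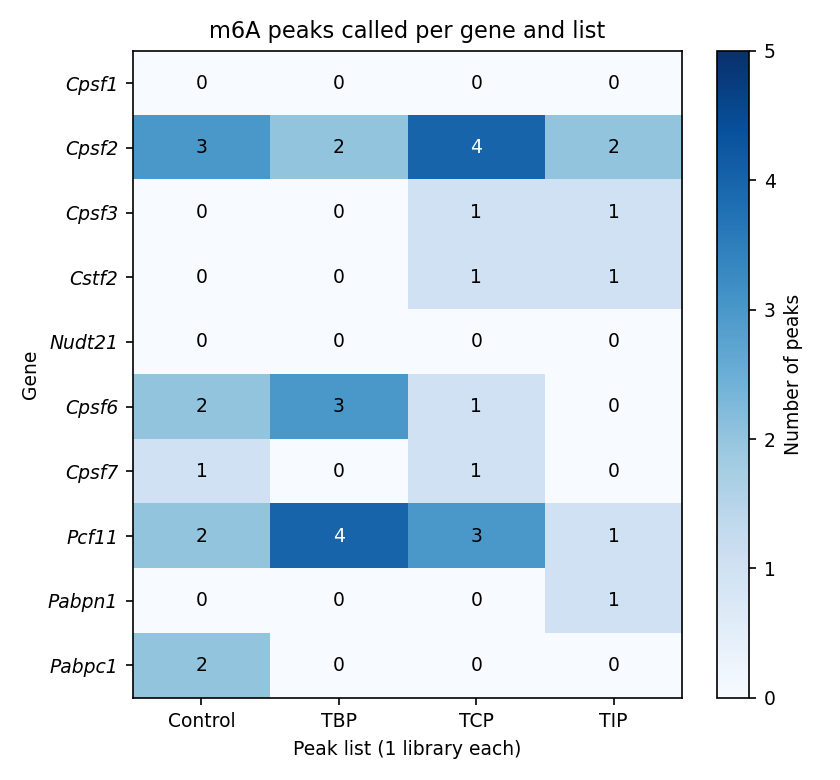
Number of m6A peaks called for each of the 10 genes (rows) in each of the 4 lists (columns, 1 library each); the shade and the digit both give the number of peaks. Cpsf2 and Pcf11 have peaks in every column, Cpsf1 and Nudt21 in none, Pabpc1 has 2 in the control column alone and Pabpn1 1 in the TIP column alone.

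Pcf11 carried the site that recurred most widely. The gene lies on the minus strand of chromosome 7 (92643458 to 92670080, GRCm38), and control gave it 2 peaks, TBP 4, TCP 3 and TIP 1, all in exons outside UTRs. By number of peaks, TBP was thus highest and TIP lowest. A gene with 4 or more peaks was not rare in the TBP list, where 11.6% of genes had as many, while the median gene had 1.

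A single site in exon 8 of 16 of Pcf11 was called in all 4 lists, with 25 bp common to all of them. It was the 1 site of the 24 held by the 10 genes that did so. In control it spanned 25 bp (chromosome 7, 92657434 to 92657458) and was at the lowest score of the list, rank 3772 of 4432, among the 661 peaks tied there. In TBP it spanned 150 bp (92657409 to 92657558) and ranked 495 of 6285. In TCP it spanned 125 bp (92657434 to 92657558, rank 683 of 6981) and in TIP 100 bp (92657434 to 92657533, rank 547 of 3034). The called interval was thus wider in each compound list than in control, and the site stood in the best 7.88% of the TBP list, 9.78% of the TCP list and 18.0% of the TIP list against 85.1% in control.

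The other Pcf11 sites were less shared. In exon 5, control (92661786 to 92661835, rank 3291) and TBP (92661786 to 92661810, rank 4741) had overlapping peaks, and TCP had 2 peaks nearby that did not overlap them (92661636 to 92661660, rank 5932, and 92661436 to 92661510, rank 2604). These 3 sites lay within 400 bp, in a part of the gene where TIP had none. TBP alone had a second exon 8 peak, 125 bp long (92658634 to 92658758, rank 1002), and a peak in the last exon, exon 16 (92644693 to 92644767, rank 2299). The last-exon peak overlaps Gm26944, a long non-coding RNA gene annotated on the plus strand. The labels do not say how strand was assigned to reads.

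The CPSF genes differed in how many peaks they had. Cpsf2, which encodes a subunit related to the endonuclease Cpsf3 and is thought to lack cleavage activity itself, lies on the plus strand of chromosome 12 (101975759 to 102005993). Control gave it 3 peaks, TBP 2, TCP 4 and TIP 2, at 7 sites, the most of the 10 genes. In the TCP list 12.5% of genes had 4 or more peaks.

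In exon 8 of 15 of Cpsf2, a site was called at the same 50 bp in control (101989960 to 101990009, rank 2107 of 4432) and in TBP (rank 3423 of 6285). TCP had it at 75 bp (101989960 to 101990034, rank 2219 of 6981) and had a further peak 100 bp before it (101989810 to 101989859, rank 4184). TIP had no peak in exon 8. Among the 36 peaks, this was the only pair from different lists with the same start and end.

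Around the end of the Cpsf2 coding sequence, 4 sites lay within 1016 bp (102002752 to 102003767). TBP had a 491 bp peak annotated to the 3′ UTR (102002752 to 102003242, rank 508 of 6285). TCP had a 391 bp peak with the same start, annotated to exon 14 (102002752 to 102003142, rank 4184 of 6981), and control had a 75 bp peak with the same end as that of TBP (102003168 to 102003242, rank 1430 of 4432). The control and TCP peaks met only through the TBP peak and did not overlap each other, and the annotation class of this site changed with the called boundary. Further on in the 3′ UTR, TCP had a 25 bp peak (102003293 to 102003317, rank 4645), TIP a 75 bp peak (102003643 to 102003717, rank 890 of 3034) and control a 25 bp peak at its lowest score (102003743 to 102003767). TIP thus had peaks on Cpsf2, the other in exon 13 (102000776 to 102000800) at the lowest TIP score, but at no position called in another list. The TIP and control peaks in the 3′ UTR were 25 bp apart.

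**Figure D2:**
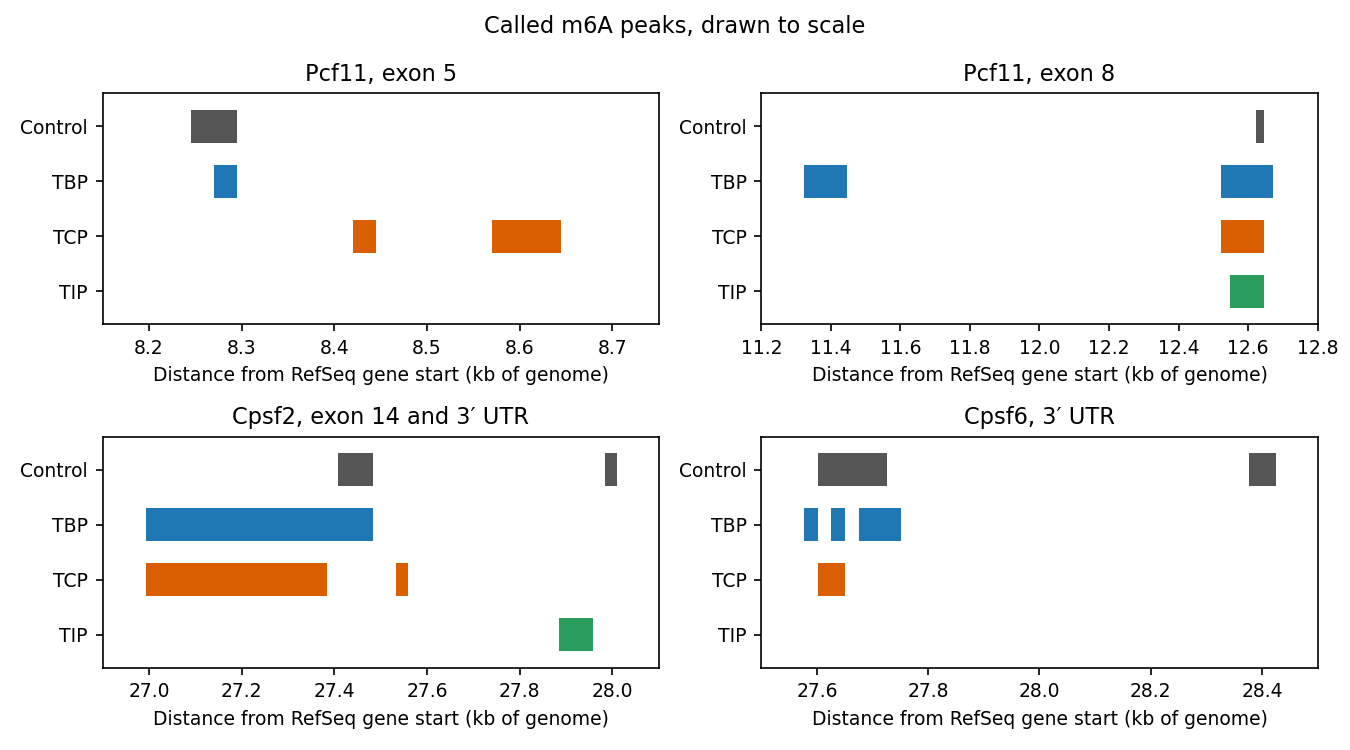
Called m6A peaks in 4 stretches of Pcf11, Cpsf2 and Cpsf6, with the distance from the RefSeq gene start in kb of genome (introns included) on the horizontal axis and 1 row per list; each bar is 1 peak drawn to scale. The exon 8 site of Pcf11 is the single position marked in all 4 rows, and the TIP row is empty in Cpsf6 and in exon 5 of Pcf11.

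Cpsf3, the endonuclease, had a peak in TCP and a peak in TIP and none in control or TBP, at different places in the gene (chromosome 12, 21286273 to 21315056, plus strand). The TCP peak spanned 50 bp in exon 8 of 18 (21300127 to 21300176, rank 3744 of 6981). The TIP peak spanned 1489 bp of genome and was annotated to exon 4 of 7 of another transcript (21290265 to 21291753, rank 2110 of 3034). The gap between them was 8373 bp, so both lists held the gene but shared no site. Cpsf1, the largest CPSF subunit, had 0 peaks (chromosome 15, 76595808 to 76607661).

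Cstf2, the RNA-binding subunit of CstF, was in TCP and TIP and absent from control and TBP, like Cpsf3, but here the site was shared. The TIP peak in exon 11 of 14 spanned 50 bp (chromosome X, 134074534 to 134074583, plus strand, rank 1281 of 3034) and the TCP peak was its last 25 bp (134074559 to 134074583, rank 4184 of 6981). The authors' nearest-gene column names Mir3112 for these peaks, a microRNA gene that starts 732 bp further on inside Cstf2. By that column Cstf2 would have no peak.

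Of cleavage factor I, the large subunits had peaks and the small subunit Nudt21, which binds the UGUA element, had 0 (chromosome 8, 94019403 to 94037039). Cpsf6, on the minus strand of chromosome 10 (117344667 to 117376998), was given 2 peaks by the control list, 3 by TBP, 1 by TCP and 0 by TIP, all in the 3′ UTR. Its control peak of 125 bp (117349273 to 117349397) ranked 60 of 4432, the best rank of any of the 36 peaks within its list. Within that stretch TBP had a 25 bp peak (117349348 to 117349372, rank 203 of 6285) and TCP a 50 bp peak (117349348 to 117349397, rank 1083 of 6981). The site was in the best 1.35% of the control list, 3.23% of the TBP list and 15.5% of the TCP list, and 25 bp were common to the 3 lists.

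TBP had 2 further Cpsf6 peaks flanking that core. A 75 bp peak overlapped the control interval (117349248 to 117349322, rank 1170). A 25 bp peak directly adjoined the control interval on the side of the gene start (117349398 to 117349422, rank 3086). The control list had a second Cpsf6 peak 650 bp further toward the 3′ end (117348573 to 117348622, rank 3291 of 4432), found in no other list. All Cpsf6 peaks lay within 850 bp of 3′ UTR, a stretch without a TIP peak.

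Cpsf7, which pairs with Nudt21 in place of Cpsf6, had 1 peak in control and 1 in TCP, both annotated to the 3′ UTR (gene at chromosome 19, 10525223 to 10547735, plus strand). The TCP peak spanned 75 bp (10540742 to 10540816, rank 3095 of 6981). The control peak spanned 4671 bp of genome (10541067 to 10545737, rank 2938 of 4432), the widest of the 36, and started 250 bp after it. The 2 peaks therefore did not overlap each other, and each overlaps Tmem216, a protein-coding gene annotated on the minus strand.

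The poly(A)-binding proteins had peaks in 1 list each. Pabpn1 had a single 25 bp peak in TIP, in its 3′ UTR (chromosome 14, 54898107 to 54898131, plus strand), at the lowest score of the TIP list, rank 2704 of 3034 with 331 peaks tied. Pabpc1, on chromosome 15 (36595658 to 36609581, minus strand), had 2 peaks in control and 0 in TBP, TCP and TIP. Its stronger peak, annotated to exon 1 of 15, spanned 2451 bp of genome (36605892 to 36608342) and ranked 129 of 4432, in the best 2.91%. The weaker spanned 50 bp in exon 10 (36598261 to 36598310, rank 3291). Pabpc1 has close paralogs and many processed pseudogenes, and the labels do not say how reads matching several copies were counted, so its peaks are uncertain in that respect.

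Set against control, TBP gained 0 of the 10 genes (a peak in TBP, none in control) and lost Cpsf7 and Pabpc1 (the reverse). Over all 4320 genes with a peak, 25% were gained and 9.93% lost with TBP. TCP gained 2, Cpsf3 and Cstf2, and lost Pabpc1, beside 30.6% gained and 9.26% lost over all genes. TIP gained 3, Cpsf3, Cstf2 and Pabpn1, and lost 3, Cpsf6, Cpsf7 and Pabpc1, beside 7.64% and 23.6%. The 3 comparisons share the control list. Several of these calls changed with the score cut. When each list was cut to its 3034 highest scores, Cpsf3 and Cstf2 had no TCP peak and were no longer gained with TCP, and Cpsf7 had no control peak and was no longer lost. That Cpsf7 peak (rank 2938, 353 peaks tied) shares its score with peaks on both sides of the cut. Ties there were settled by order in the list, so its removal does not reflect a lower score. Pcf11 then had 0 peaks in control and 3, 2 and 1 in TBP, TCP and TIP, so that it counted as gained with each compound. When peaks under the median score of their list were left out, the gains of Cpsf3 in both lists and of Pabpn1 in TIP ended, as did that of Cstf2 in TCP and the losses of Cpsf7, while Pcf11 counted as gained with each compound and Cpsf7 with TCP. Without peaks over 500 bp, Cpsf7 had no control peak and Cpsf3 no TIP peak, so that the losses of Cpsf7 and the gain of Cpsf3 with TIP ended and Cpsf7 counted as gained with TCP. The loss of Pabpc1 with each compound and of Cpsf6 with TIP, and the gain of Cstf2 with TIP, held under these 3 settings. For Pabpc1 they rested on different control peaks. Under the score cuts the 2451 bp peak remained, and without peaks over 500 bp only the 50 bp peak of rank 3291. By the nearest-gene column Cstf2 had no TIP peak, so its gain ended there.

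Dose and time were equal for the 3 compounds. As a share of the 8 genes with any peak, TBP held 37.5%, TCP 75%, TIP 62.5% and control 62.5%. These are shares of 8 genes chosen with their peaks known, in 1 library each, and no difference from the share over all genes was tested. TBP and TCP shared Cpsf2, Cpsf6 and Pcf11, TCP and TIP shared Cpsf2, Cpsf3, Cstf2 and Pcf11, and TBP and TIP shared Cpsf2 and Pcf11. The number of genes per compound thus differed by at most 3 of 10 at 1 library each.

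**Figure D3:**
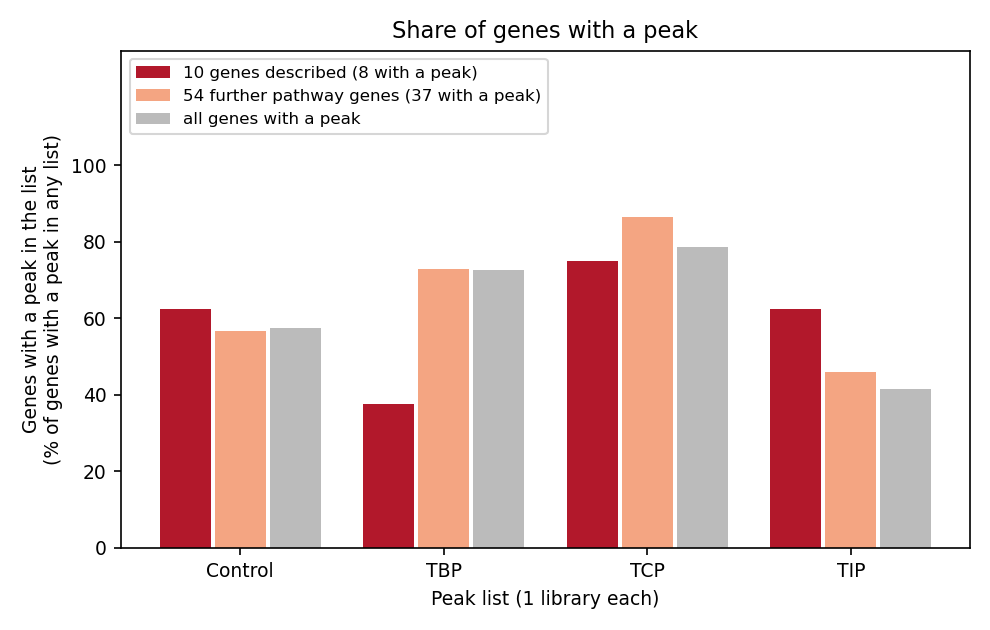
Share of genes with a peak in each list, as a percentage of genes marked in any list, for the 10 genes described, 54 further genes of the pathway and all genes, with no error bars, since each list is 1 library. The share for the 10 genes was 37.5% in TBP beside 72.6% of all genes and 62.5% in TIP beside 41.5%, over 8 genes chosen with their peaks known.

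When overlapping peaks on the same strand were merged, the 36 peaks fell into 24 sites. Of these, 18 were called in 1 list, 2 in 2 lists (Pcf11 exon 5 and Cstf2 exon 11), 3 in 3 lists (Cpsf2 exon 8, the end of the Cpsf2 coding sequence and the Cpsf6 3′ UTR) and 1 in 4 lists (Pcf11 exon 8). The 6 sites in 2 or more lists are 25% of the 24, beside 39.4% of all 11753 sites, and the 1 site in all 4 lists is 4.17% beside 10.6%. The 3 sites in 3 lists were all called in control, TBP and TCP and not in TIP. TIP is the shortest list, with 3034 peaks, and which list was missing from the 1301 sites in 3 lists over all peaks is not given here. Of the sites found in 1 list, control had 5, TBP 3, TCP 6 and TIP 4. Over all peaks 7126 sites were found in 1 list. The TCP list held 2952 of these, TBP 2344, control 1071 and the short TIP list 759. The 2 splits were not tested against each other.

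By annotation class, 22 of the 36 peaks lay in exons outside UTRs, 14 in 3′ UTRs and 0 in 5′ UTRs. The 3′ UTR share was 38.9% beside 49.7% of all peaks. The classes divided by gene, with Pcf11, Cpsf3, Cstf2 and Pabpc1 in exons, Cpsf6, Cpsf7 and Pabpn1 in 3′ UTRs, and Cpsf2 in both. Peaks spanned 25 to 4671 bp with a median of 50 bp, which was also the median of each whole list, and 3 (Pabpc1 in control, Cpsf7 in control and Cpsf3 in TIP) spanned over 500 bp of genome, as did 1.69% of all peaks. Whether these 3 cross introns was not examined.

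By score, 19 of the 36 peaks were at or above the median of their list, with 4 of 10 for control, 7 of 9 for TBP, 5 of 11 for TCP and 3 of 6 for TIP. Over all peaks 53.2% were, since scores are tied. Another 5 were at the lowest score of their list, the Pcf11 exon 8 and a Cpsf2 3′ UTR peak in control, a Pcf11 exon 5 peak in TCP, and the Cpsf2 exon 13 peak and the Pabpn1 peak in TIP. Over all peaks 14.2% were.

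**Figure D4:**
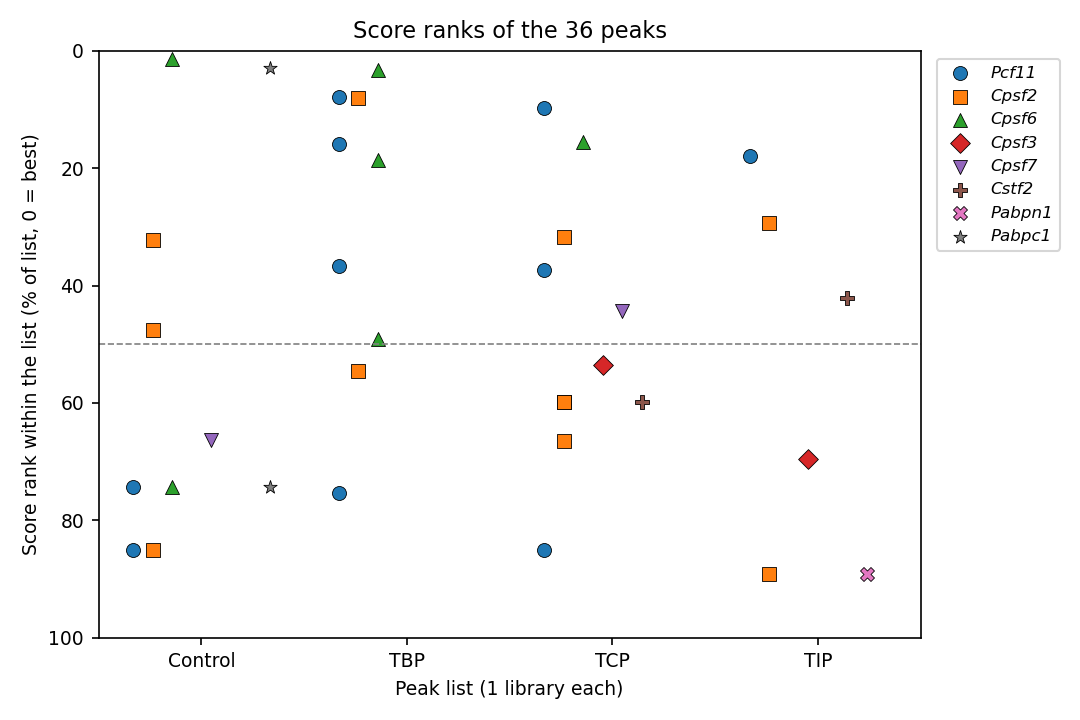
Score rank of each of the 36 peaks as a percentage of its list (0 is the best, axis reversed), by list (1 library each) and gene; the dashed line marks 50%, and 2 Cpsf2 peaks tied at 59.9% in TCP coincide. Cpsf6 (1.35%) and Pabpc1 (2.91%) lead the control column, Cpsf6 (3.23%) the TBP column, and Pcf11 the TCP (9.78%) and TIP (18.0%) columns.

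Beyond the 10 genes, 54 genes in 4 further lists of the pathway were counted, of which 37 carried a peak somewhere. Control marked 21 of them, TBP 27, TCP 32 and TIP 17. As shares of the 37 these were 56.8%, 73%, 86.5% and 45.9%, beside 57.5%, 72.6%, 78.8% and 41.5% of all genes. With TBP 7 of the 37 were gained and 1 lost, beside 25% and 9.93% of all genes. With TCP 11 were gained and 0 lost, beside 30.6% and 9.26%. With TIP 0 were gained and 4 lost, beside 7.64% and 23.6%. Gained with TIP were thus 0 of these 37 genes and 3 of the 8 described above, which were chosen with their peaks known. Both sets are small, and the difference was not tested. Of those 3 gains, the ones of Cpsf3 and Pabpn1 ended when peaks under the median score of their list were left out.

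Of 15 other genes of the cleavage machinery, 13 had a peak somewhere, and control marked 8, TBP 9, TCP 12 and TIP 5. For this group and those below, the shares of all genes with a peak are 57.5% for control, 72.6% for TBP, 78.8% for TCP and 41.5% for TIP. Counts below are for control, TBP, TCP and TIP, in that order. Cstf1, another subunit of CstF, had 2, 4, 3 and 2 peaks. Clp1, the partner of Pcf11 in cleavage factor II, had 1, 1, 1 and 0. Wdr33, a CPSF subunit that takes part in recognising the AAUAAA signal, had 0, 3, 2 and 0. Rbbp6, a large protein that activates cleavage, had the most, with 5, 7, 9 and 2. Scaf4, which acts against early polyadenylation in human cells, had 3, 2, 5 and 3, and Xrn2, the exonuclease of transcription termination, had 1, 0, 1 and 0. Subunits of 1 complex thus differed, CstF having peaks on Cstf1 in all 4 lists, on Cstf2 in 2 and on Cstf3 in 0.

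Of 10 poly(A) polymerases and tailing enzymes, 5 had a peak, and these were the same 5 in each list, with 0 gained or lost. Of all genes with a peak, 29.8% were in all 4 lists. Papola, the canonical nuclear poly(A) polymerase, had 2, 3, 4 and 2 peaks. Tut4 and Tut7, which add uridines to RNA 3′ ends, had 3, 5, 3 and 1 and 2, 4, 3 and 2. Tent4a, which adds mixed tails, had 1, 3, 3 and 1, and Mtpap, the mitochondrial poly(A) polymerase, had 3, 3, 1 and 1.

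Of 11 other poly(A)-binding proteins and partners, 6 had a peak somewhere, and control marked 2, TBP 3, TCP 5 and TIP 2. Larp1, which binds the cap of mRNAs for ribosomal proteins and interacts with Pabpc1, had 3, 4, 6 and 4 peaks, and its relative Larp4b had 2, 2, 2 and 1. Pabpc4, a paralog of Pabpc1, had 0, 0, 1 and 0, as had Zc3h14, a nuclear poly(A)-binding zinc finger protein. Paip1, a Pabpc1 partner in translation, had 2 in TCP and 0 elsewhere, and Larp4 1 in TBP and 0 elsewhere.

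Of 18 deadenylases and their adaptors, which shorten poly(A) tails, 13 had a peak somewhere, and control marked 6, TBP 10, TCP 10 and TIP 5. Pan3, a subunit of the Pan2-Pan3 deadenylase, had 3, 4, 4 and 2 peaks, and Cnot6, a catalytic subunit of the CCR4-NOT complex, had 2, 1, 3 and 1. Cnot2, a further CCR4-NOT subunit, had 1, 1, 1 and 0. Among the adaptors Btg1 had 2, 2, 1 and 2, Btg2 had 0, 2, 0 and 0, and Tob2 had 0, 1, 1 and 0.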

How the data were processed

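Anti-m6A immunoprecipitates and inputs of RAW264.7 RNA were sequenced, 1 library each per condition. Among the tools listed in the submitters' processing notes, without roles, are HISAT2 2.1.0, Trim Galore 0.6.5, HOMER 4.11 and ChIPseeker 1.26, with the genome build GRCm38 (mm10). Which program called the peaks, at what threshold, and whether it used the inputs is not given in the sources used here. Per peak, a deposited list gives the position, strand, annotation class, nearest gene and a score on no stated scale, per the file headers. The authors' score served only for ranks and minimums within 1 list, with ties given the best rank.

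A peak was placed in the gene of its exon annotation, failing that in the nearest gene where that gene contains it on its strand, and otherwise in a single RefSeq gene (GRCm38.p6) over it, passing over small RNA genes. This placed 98.6% of 20732 peaks, and all 36 described here by the first 2 steps (22 and 14). Peaks overlapping by at least 1 bp on a strand formed a site. The site step was run on simulated lists of equally wide peaks at well-separated sites. That run checks the code only and does not cover close neighbours, wide peaks or peaks joined through another. Widths are spans of genome, end minus start plus 1, from the deposited positions. Python 3.11.15 and pandas 2.3.3 were used.

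All 10 genes are named. Of each further list, up to 3 genes gained or lost with the most compounds are named and then those with the most peaks, up to 6 in all, ties in alphabetical order; the limit of 3 was set after the counts were seen. Cstf3 is named in addition, as a CstF subunit without a peak. Genes and lists were chosen with earlier results of these data known. Alternatives were equal list length, peaks at or above the list median score, the nearest-gene column, no peaks over 500 bp, an overlap of 50% of the shorter peak and joining of peaks within 100 bp. No genome sequence was used, so sequence motifs at the sites were not analysed here.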

Additional observations from a re-analysis of the deposited data

How the results depend on the processing

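At equal list length (the 3034 best-scored peaks of each list), genes with a peak went from 5 to 3 in control and from 6 to 3 in TCP, their peaks from 10 to 4 and from 11 to 4, genes gained with TBP from 0 to 1, lost with TBP from 2 to 1 and gained with TCP from 2 to 1; sites went from 24 to 13 and sites in all 4 lists from 1 to 0. With peaks at or above the list median score, genes with a peak went from 5 to 3 in control and from 5 to 3 in TIP, peaks from 10 to 4 in control, 11 to 5 in TCP and 6 to 3 in TIP, genes gained with TBP from 0 to 1 and lost with TBP from 2 to 1. Under each of these, the gene gained with TBP was Pcf11, whose control peaks lie low in the list. At equal list length, peaks tied at the cut were kept or left out by their order in the list. The control peak of Cpsf7 (rank 2938, 353 peaks tied) was left out in this way. The changes in control genes, control peaks and genes lost with TBP at equal list length partly rest on it. By the nearest-gene column, genes gained with TCP went from 2 to 1, since the Cstf2 peaks are listed under Mir3112, and 4 peaks held by Ndufb1 are listed under Cpsf2. Without peaks over 500 bp (for genes, an alternative chosen after seeing the data), genes lost with TBP went from 2 to 1, since the control peak of Cpsf7 is left out. The remaining counts over the 10 genes stayed within 1.5 times, as did every count of sites with an overlap of 50% of the shorter peak (24 sites, 6 recurring) or with peaks within 100 bp joined (20 sites, 7 recurring). Of 40 counts per gene and list, 27 kept their value at equal list length and 13 were lower, 26 and 14 did so with peaks at or above the median, and 37 and 3 without peaks over 500 bp (Pabpc1 and Cpsf7 in control, Cpsf3 in TIP). No paired analysis was possible because each condition has 1 library and no result comes from a test.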
